A study of Mus musculus with 6 samples.

Results

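The genes described here encode the machinery that brings proteins into mitochondria and keeps them folded or removes them. They were chosen by symbol, with earlier results of these data known. The rule took every symbol that begins with Timm or Tomm and a number. It also took 14 named genes: chaperones, peptidases, proteases and the outer membrane assembly protein Samm50. This gave 37 of the 16472 genes in the authors' deposited table, and all 37 had an adjusted p. HT22 cells are an immortalised line from mouse hippocampus, and AA147 is a compound described as switching on the stress regulators ATF6 and NRF2. Cultures of this 1 line received AA147, at a dose that the treatment protocol writes as 10 mM, or its vehicle DMSO for 16 h, with 3 libraries in each group and 6 in all. No genetic change is named for either group. The labels do not say whether the libraries came from separate cultures, so the p-values measure only the spread between these libraries. Of 9 neuron markers, Tubb3 and Syn1 were in the authors' deposited table and Map2, Rbfox3, Syp, Snap25, Dcx, Nefl and Nefm were not, while all 7 mesenchymal markers were, with means from 2168 to 254004 normalized counts.

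Most mitochondrial proteins are made in the cytosol and cross the outer membrane through the TOM complex. From there, proteins with a cleavable presequence pass the TIM23 complex of the inner membrane, pulled by the matrix chaperone mtHsp70, while carrier proteins are escorted by small TIM chaperones to the TIM22 complex, and barrel proteins are inserted by the SAM complex. Inside, the presequence is removed, chaperones fold the protein, and energy-dependent proteases degrade what is damaged or surplus. Expression of the chaperones and proteases is known to rise in the mitochondrial unfolded protein response.

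The authors' deposited table gives 1 mean, 1 log2 fold change, 1 standard error (SE) and 1 adjusted p per gene, and values of single libraries were not analysed here. Its header does not say which group is divided by which. Values are read here as AA147 over vehicle, so that positive means higher with AA147, and every direction below is conditional on that reading. In the authors' deposited table the NRF2 target Nqo1 was positive at 0.93 (SE 0.067) and the ATF6 target Hspa5 negative at -0.80 (SE 0.061), so these known targets of the compound's pathways do not point the same way. A gene was called when its adjusted p was under 0.05. Intervals are 95% intervals around the log2 fold change, computed from the SE with the normal distribution. Of the neuron markers, Tubb3 was called positive at 0.43 (adjusted p 5.67e-05) and Syn1, at 0.13, was not called in the authors' deposited table. Of the 7 mesenchymal markers, 4 were called negative and 0 positive, beside 11.1% and 9.05% of all genes with an adjusted p. The part of these markers in the results was not tested.

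Calls among the import and quality control genes went in both directions. In the authors' deposited table, 10 of the 37 genes were called, 27% of them, beside 20.2% of the 13597 genes with an adjusted p. Positive calls were 5, beside 9.05% of all those genes, and negative calls were 5, beside 11.1%. Higher with AA147 were Timm21, Tomm34, Lonp1, Timm17a and Grpel1, and lower were Timm17b, Tomm6, Tomm6os, Timm10b and Afg3l2. All called changes were small, between -23.3% and 27.5%, and no member had an absolute log2 fold change of 0.5 or more, which was reached by 5.85% of all genes together with a call. Over the 37 genes the log2 fold change had a median of 0.02, against 0.01 for every gene of the authors' deposited table that had an adjusted p. The median absolute value was 0.089 for the members and 0.16 for all those genes, which include many of lower expression. Among genes with a mean from 1000 to 10000 it was 0.090 for the 26 members and 0.12 for all genes.

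The share of called genes follows the expression level, and the members are well expressed. Their mean normalized counts, which are counts scaled to an average library, ran from 66.8 for Timm23 to 21854 for Hspa9 in the authors' deposited table. The middle member had 1866, against 430 for the middle gene of the whole table. Of the 26 members with a mean from 1000 to 10000, 9 were called, beside 27.3% of all genes in that class. Of the 8 with a mean from 100 to 1000, 1 was called, beside 18.1% of all genes there. Timm23, the 1 member with a mean from 10 to 100, was not called, beside 7.49%. Neither of the 2 members above 10000 was called, beside 41.7%. The SEs of the members lay between 0.055 and 0.26 and were 0.861 to 1.14 times the median SE in classes of like expression. The plot of means against fold changes shows the members inside the cloud of all genes.

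**Figure D1:**
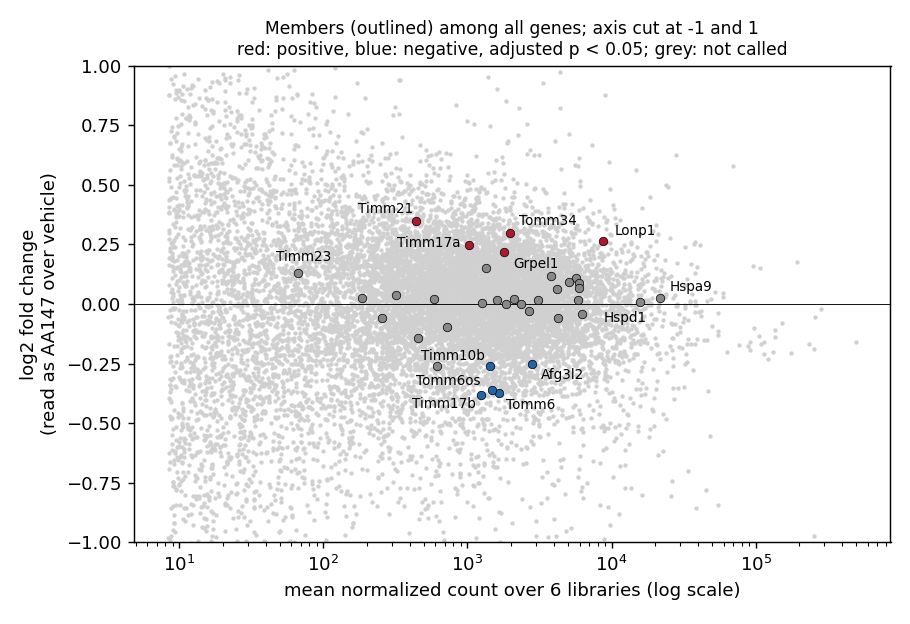
Log2 fold change (vertical, cut at -1 and 1) against mean normalized count (horizontal, log scale) in the authors' deposited table; small grey points are all genes with an adjusted p and outlined points the 37 members, red for 5 positive calls, blue for 5 negative calls and grey for the rest. The members lie between -0.38 and 0.35, and Hspd1 and Hspa9, the most abundant, lie next to the line of no change.

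Promoter stretches are shown for the genes on which the account turns: Lonp1, the protease with the most significant positive value, the Timm17 paralogs, which were called in opposite directions, and Hspe1, which shares its promoter region head to head with Hspd1 and was not called. They are upstream sequence from RefSeq on assembly GRCm38.p6, which is not the mm9 build of the submitters' processing notes, and they leave out bases that lie in an annotated transcript except for the short Hspe1 stretch. Capitals mark a match to the core of the antioxidant response element bound by NRF2 (TGACNNNGC) in Lonp1, to the CCAAT box in Timm17a and Timm17b, and to a pair of heat shock element units (GAANNTTC) in Hspe1, on either strand.
Lonp1, chr17:56626981-56627153, minus strand: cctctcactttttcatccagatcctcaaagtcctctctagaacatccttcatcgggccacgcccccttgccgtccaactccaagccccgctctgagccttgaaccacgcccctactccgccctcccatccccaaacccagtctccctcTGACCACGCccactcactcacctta
Timm17a, chr1:135313785-135313987, minus strand: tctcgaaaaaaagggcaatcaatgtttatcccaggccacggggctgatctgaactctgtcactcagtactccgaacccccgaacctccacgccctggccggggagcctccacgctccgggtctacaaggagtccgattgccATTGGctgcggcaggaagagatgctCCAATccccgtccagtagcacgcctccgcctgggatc
Timm17b, chrX:7899272-7899335, plus strand: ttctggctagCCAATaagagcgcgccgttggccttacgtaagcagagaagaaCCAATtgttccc
Hspe1, chr1:55088053-55088082, plus strand: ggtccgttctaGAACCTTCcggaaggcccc

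Upstream windows of 250 bases were at hand for 31 of the 37 members, and not for Afg3l2, Grpel2, Hspa9, Timm21, Tomm40l and Tomm7. The antioxidant response core was found for 2 of the 31, Lonp1 and Tomm20, and in 10.2% of all 32851 windows. The heat shock unit pair was found for Hspd1, Hspe1 and Timm9, 9.68% of the 31, and in 6.69% of all windows. Hspd1 and Hspe1 start head to head 108 bases apart, so their windows overlap and 1 site can be counted for both. CCAAT was found for 10 of the 31 members, 32.3%, and in 33.8% of all windows. The core of the composite element bound by ATF4 (TGATGNAA) and the ER stress response element bound by ATF6 (which begins with CCAAT) were found for 0 of the 31, and in 3.45% and 0.113% of all windows. A match describes letters only, and a missing match says nothing of a factor outside these windows.

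At the outer membrane, the receptors and the pore of the TOM complex were not called, and the small subunits had negative values. Tomm20, the receptor for presequences, was at -0.06 (SE 0.065), Tomm22, the central receptor, at -0.03 (SE 0.064) and Tomm70a, the receptor for carriers and a docking site for cytosolic chaperones, at 0.09 (SE 0.059) in the authors' deposited table. Tomm40, the beta-barrel pore, had a mean of 5044 and a log2 fold change of 0.09 (adjusted p 0.349, SE 0.063). Its paralog Tomm40l had a mean of 1271 and a log2 fold change of 0.00 (adjusted p 0.98, SE 0.080) in the authors' deposited table. Both intervals include no change, from -0.03 to 0.21 for Tomm40 and from -0.15 to 0.16 for Tomm40l.

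The small TOM subunits, which stabilise the pore complex, were all on the negative side. Tomm6 was called at -0.37 (adjusted p 0.000409, SE 0.090) in the authors' deposited table, with implied means of 1440 normalized counts with AA147 and 1866 with vehicle at face value of the ratio. Tomm7 at -0.26 (adjusted p 0.0904, SE 0.11) had an unadjusted p of 0.0219 and was not called, and Tomm5 at -0.14 (adjusted p 0.428, SE 0.11) was not called in the authors' deposited table. With these SEs, a change of at least 0.29 for Tomm7 and 0.30 for Tomm5 would have been needed for a call.

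The Tomm6 value cannot be assigned to Tomm6 alone. The libraries were not stranded, and all 749 bases of the canonical Tomm6 transcript lie in exons of other genes in GENCODE M39. Among these are Gm21981 on the same strand, and Usp49 and the antisense non-coding transcript Tomm6os on the opposite strand. How many bases Tomm6 shares with each of them is not given here. Tomm6os had almost the same log2 fold change, -0.36 (adjusted p 0.00099, SE 0.092), at a mean of 1482 against 1653 for Tomm6 in the authors' deposited table. Exons of other genes, among them Gm21981, Prickle4 and Tomm6, cover 32.5% of the Tomm6os transcript. Without strand, reads from bases that Tomm6 and Tomm6os both hold cannot be told apart. For bases shared by Tomm6 and Gm21981, strand would not separate the reads either. Without Tomm6os the members called were 9, of which 4 were negative.

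Tomm34 was the called positive gene among the Tomm symbols, at 0.30 (adjusted p 0.00121, SE 0.077) with a mean of 1974 in the authors' deposited table. It is not a subunit of the pore but a mostly cytosolic co-chaperone that binds Hsp70 and Hsp90 and helps to keep precursors ready for import. The implied means of Tomm34 were 2178 with AA147 and 1770 with vehicle. An exon of 4933437I04Rik on the opposite strand covers 7.26% of its canonical transcript. Samm50, the core of the sorting and assembly machinery for barrel proteins, was at 0.02 (adjusted p 0.893, SE 0.055) in the authors' deposited table, with an interval from -0.09 to 0.12.

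**Figure D2:**
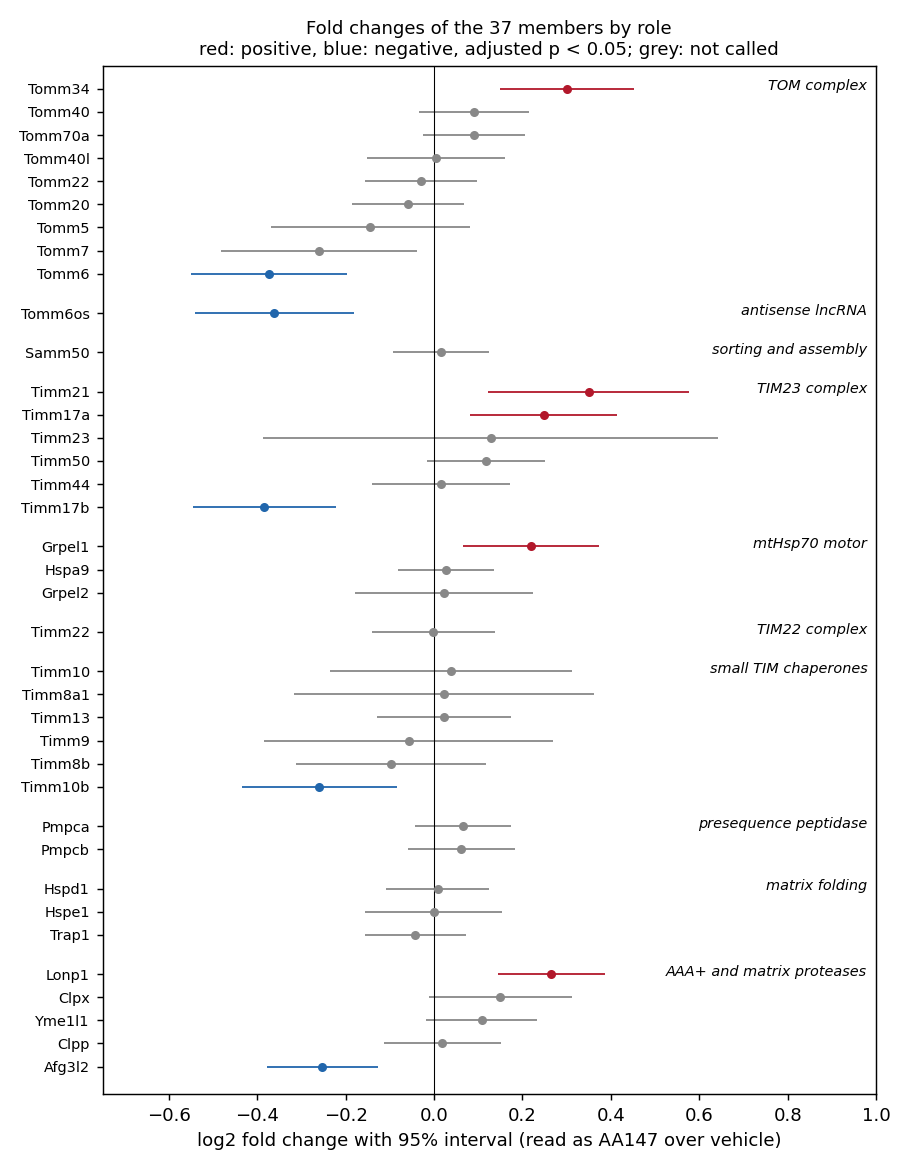
Log2 fold change (horizontal, read as AA147 over vehicle) of each of the 37 members, grouped by role; points are the values of the authors' deposited table and bars the 95% intervals computed from its SE, red for positive calls, blue for negative calls and grey for genes not called. The TIM23 group holds calls in both directions, the matrix folding group lies at no change, and the interval of Timm23 is the widest, from -0.39 to 0.64. The TOM group was formed by symbol and holds every Tomm gene but Tomm6os, so it includes Tomm34, which is not a subunit of the pore.

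The TIM23 complex held calls in both directions, 2 positive and 1 negative among its 6 genes, beside 20.2% of all genes called and 27.3% of those with a mean from 1000 to 10000. Timm17a and Timm17b encode alternative versions of the channel subunit Tim17, and in the authors' deposited table their values were opposite. Timm17a had a mean of 1033 and a log2 fold change of 0.25 (adjusted p 0.021, SE 0.085), and Timm17b a mean of 1241 and a log2 fold change of -0.38 (adjusted p 5.65e-05, SE 0.082) in the authors' deposited table. At face value the vehicle group had 945 normalized counts of Timm17a and 1405 of Timm17b, and the AA147 group 1122 and 1077. The intervals, from 0.08 to 0.41 for Timm17a and from -0.54 to -0.22 for Timm17b, did not overlap. The difference between the paralogs was not tested as such, because both values come from the same libraries and their covariance is unknown. The Timm17a call was lost when a trend on transcript length, GC content and expression was subtracted (adjusted p 0.14), and the Timm17b call was kept (-0.41, adjusted p 1.01e-05).

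Timm21, which links the TIM23 complex to TOM and to the respiratory chain, had the largest positive value of all members, 0.35 (adjusted p 0.0167, SE 0.12) at a mean of 437 in the authors' deposited table. It too was not called after trend subtraction (0.28, adjusted p 0.0609). Timm50, the receptor that hands precursors from TOM to TIM23, was at 0.12 (adjusted p 0.233, SE 0.068), and Timm44, which anchors mtHsp70 at the channel, at 0.02 (SE 0.079) in the authors' deposited table. Timm23 itself, the channel protein, had a mean of only 66.8 and a log2 fold change of 0.13 (adjusted p 0.801, SE 0.26) in the authors' deposited table. Its spliced transcript has 5 further copies in the GRCm39 genome that match at least 80% of its length at 95% identity or more, the closest at 99.9%. How the authors' counting treated reads that fit several places is not given in the sources used here, so the level of Timm23 is uncertain, and a change below 0.68 could not have been called.

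Of the 3 genes of the motor that pulls precursors into the matrix, 1 exchange factor was called and the Hsp70 itself was not. Calls among all genes were 20.2%. Hspa9, the matrix Hsp70 mortalin, was the most abundant member with a mean of 21854, and its log2 fold change was 0.03 (adjusted p 0.809, SE 0.055) in the authors' deposited table. Grpel1, its nucleotide exchange factor, was called at 0.22 (adjusted p 0.0306, SE 0.079) with a mean of 1792, whereas its paralog Grpel2 was at 0.02 (adjusted p 0.92, SE 0.10) with a mean of 589 in the authors' deposited table. The intervals of the paralogs overlapped, from 0.06 to 0.37 and from -0.18 to 0.22, so these values do not show that they differ. Grpel1 lost its call after trend subtraction (0.18, adjusted p 0.0747), and 24.3% of its canonical transcript is shared with an exon of Tada2b on the opposite strand.

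Along the carrier route, none of the escort chaperones but Timm10b was called. In the authors' deposited table Timm10b was at -0.26 (adjusted p 0.0222, SE 0.089) with a mean of 1425, and its relative Timm10 at 0.04 (adjusted p 0.901, SE 0.14) with a mean of 321. Timm8a1 and Timm8b, whose products pair with that of Timm13 in the space between the membranes, were at 0.02 (adjusted p 0.951, SE 0.17) and -0.10 (adjusted p 0.607, SE 0.11) in the authors' deposited table. Timm8a1, with a mean of 187, would have needed a change of 0.45 to be called. Timm9, whose product pairs with that of Timm10, was at -0.06 (SE 0.17) and Timm13 at 0.02 (SE 0.077) in the authors' deposited table. Timm22, the channel that inserts carriers, was at 0.00 (adjusted p 0.993, SE 0.071), and its partner gene Timm29, listed under the older symbol 1810026J23Rik and so outside the rule, at -0.14 (adjusted p 0.459, SE 0.12) in the authors' deposited table. The Timm8b value is shared with Nkapd1 on the opposite strand over 85% of the canonical transcript. Exons of other genes cover 20% of the canonical Timm10b transcript, among them Gm45799 on the same strand and Arfip2 on the opposite strand.

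The chaperones and peptidases of the matrix stayed close to no change, with narrow intervals. Hspd1, the chaperonin Hsp60, had a mean of 15676 and a log2 fold change of 0.01 (adjusted p 0.951, SE 0.059) in the authors' deposited table, with an interval from -0.11 to 0.12. Hspe1, its co-chaperonin Hsp10, had a mean of 2339 and a log2 fold change of 0.00 (adjusted p 0.999, SE 0.079) in the authors' deposited table, with an interval from -0.16 to 0.15. The Hspd1 transcript has 1 further copy in the GRCm39 genome at 99% identity. Changes of 0.15 for Hspd1 and 0.20 for Hspe1 would have been called. Trap1, the mitochondrial Hsp90, was at -0.04 (adjusted p 0.689, SE 0.058), and both subunits of the presequence peptidase, Pmpca at 0.07 (SE 0.055) and Pmpcb at 0.06 (SE 0.062), were not called in the authors' deposited table. For 14 of the 37 members the whole interval lay within 0.2 of no change, on either side.

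Of the 5 protease genes, 1 was called positive and 1 negative, beside 20.2% of all genes, and with so few genes these counts do not set them apart from the chaperones. Lonp1, the matrix protease that degrades oxidised and misfolded proteins, had a mean of 8794 and was called at 0.27 (adjusted p 0.000232, SE 0.062) in the authors' deposited table, with implied means of 9601 with AA147 and 7987 with vehicle. Its interval, from 0.14 to 0.39, did not overlap that of Hspd1. The difference between Lonp1 and Hspd1 was not tested, since both values come from the same libraries and their covariance is unknown. An exon of Rpl36 on the opposite strand covers 7.13% of the Lonp1 transcript, and Rpl36 was at -0.10 (adjusted p 0.537, SE 0.096) in the authors' deposited table. Afg3l2, a subunit of the inner membrane protease on the matrix side, was called at -0.25 (adjusted p 0.000944, SE 0.064) with a mean of 2809 in the authors' deposited table. Clpp, the other matrix protease, was at 0.02 (adjusted p 0.902, SE 0.068), and Clpx, its unfolding partner, at 0.15 (adjusted p 0.204, SE 0.083) in the authors' deposited table. Yme1l1, the inner membrane protease that faces the space between the membranes, was at 0.11 (adjusted p 0.248, SE 0.064) in the authors' deposited table.

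Relative levels were compared per kilobase of canonical transcript, using GENCODE M39 lengths with the authors' means. Hspd1 and Hspa9 led with 6470 and 6449 normalized counts per kilobase, followed by Hspe1 with 3022, Tomm40 with 2997 and Lonp1 with 2931. The lowest were Timm8a1 with 32.6, Timm23 with 56.9 and Timm10 with 95.7 per kilobase. The place of Timm23 is uncertain, because its transcript has near-identical copies in the genome and the handling of such reads is unknown. Neighbours in this order are not separated, since the spread between libraries is not in the table and the transcript forms in these cells are unknown. In bulk RNA, fewer cells with a transcript and less of it per cell cannot be told apart.

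Fold changes were set beside transcript length and GC content. Among all genes with a mean of 100 or more, the median log2 fold change ran from -0.03 in the shortest of 5 length classes to 0.05 in the longest. Among the 37 members the Spearman correlation of fold change with length was 0.188, and across 10177 genes it was 0.116. With GC content it was -0.102 among the members and -0.187 across those genes. The genes share libraries and are not independent, so these are descriptions. The part of length in the members' values was not tested on its own. The trend subtraction took length, GC content and expression together, and it ended 3 calls and added 2.

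**Figure D3:**
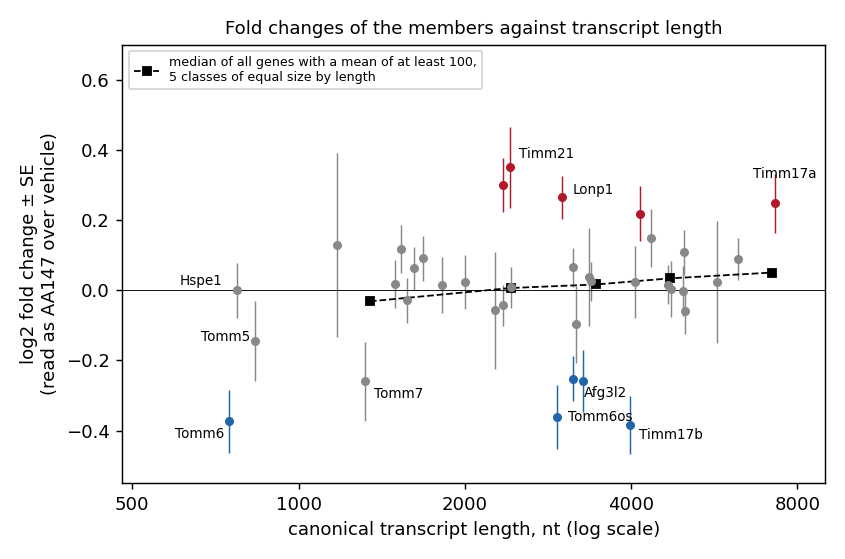
Log2 fold change with the authors' SE (vertical) against the length of the canonical transcript (horizontal, log scale) for the 37 members, coloured as positive call (red), negative call (blue) or not called (grey); black squares are medians, in 5 length classes, of all genes with a mean of 100 or more. The medians run from -0.03 to 0.05, and the members lie between -0.38 and 0.35.

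Genes that start head to head with a member within 500 bases were compared with it. There were 9 such pairs with an adjusted p for both genes, and in 0 of them were both called by the authors' test. Of all genes with an adjusted p, 20.2% were called, so 9 pairs are too few to show whether such neighbours change together. Hspd1 and Hspe1 form 1 of the pairs. For 4 pairs only the neighbour was called: Parg at 0.28 beside Timm23, Sdhd at -0.22 beside Timm8b, 2700049A03Rik at 0.40 beside Timm9 and Mastl at 0.36 beside Yme1l1 in the authors' deposited table. For 1 pair only the member was called, Timm17b, beside Pqbp1 at -0.10 (adjusted p 0.426, SE 0.082) in the authors' deposited table.

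Among other genes of the pathway and its regulators, 8 of 42 with an adjusted p were called, 2 positive and 6 negative, beside 20.2% of all genes. The 42 include 4 regulators named with the mitochondrial unfolded protein response, of which 0 were called positive and 2 negative. Of 20 other import factors, 0 were called positive and 1 negative in the authors' deposited table. That gene was Romo1, a small inner membrane protein of the import machinery, at -0.51 (adjusted p 3.34e-08, SE 0.083). Chchd4 and Gfer, the oxidative folding relay of the space between the membranes, were at 0.18 (SE 0.11) and 0.08 (SE 0.088) and were not called in the authors' deposited table. An unadjusted p under 0.05 but no call was listed for Hscb and Bcs1l, at 0.28 and 0.19.

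Of 12 other quality control genes, 2 were called positive and 1 negative in the authors' deposited table, beside 9.05% and 11.1% of all genes. Park2, also on the list, was not analysed here. Clpb, a disaggregase, was at 0.22 (adjusted p 0.00442, SE 0.063) and Opa1, the fusion protein cut by Oma1 and Yme1l1, at 0.21 (adjusted p 0.0134, SE 0.066) in the authors' deposited table. Stoml2, a membrane scaffold of the protease Yme1l1, was at -0.21 (adjusted p 0.0113, SE 0.067) in the authors' deposited table. Oma1 at 0.12, Spg7, the partner of Afg3l2, at -0.14, and Htra2 at -0.16 were not called in the authors' deposited table.

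The MICOS complex shapes cristae and binds the SAM complex. Of its 6 genes with an adjusted p, 0 were called positive and 2 negative, beside 9.05% and 11.1% of all genes. The called genes were Chchd6 at -0.32 (adjusted p 0.0115, SE 0.10) and Minos1 at -0.29 (adjusted p 0.0026, SE 0.080) in the authors' deposited table. Immt, the core gene of the complex, was at 0.04 (SE 0.057). Among 4 regulators named with the mitochondrial unfolded protein response, Atf5 at -0.52 (adjusted p 6.24e-11, SE 0.073) and Atf4 at -0.51 (adjusted p 2.67e-15, SE 0.061) were called negative in the authors' deposited table. Ddit3 at 0.07 (SE 0.12) and Hsf1 at 0.03 (SE 0.066) were not called in the authors' deposited table. Negative calls were 11.1% of all genes, and 4 regulators are too few to set against that share.

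The members, with their median of 0.02, were set beside other mitochondrial and chaperone genes. The other import factors had a median log2 fold change of 0.03 and the other quality control genes one of 0.02 in the authors' deposited table. The 6 MICOS genes with an adjusted p had a median of -0.11. Of 77 mitochondrial ribosomal protein genes 6 were called positive and 8 negative, 18.2% together beside 20.2% of all genes, with a median log2 fold change of 0.01 in the authors' deposited table. Nuclear genes of oxidative phosphorylation had a median of -0.21, with 1 positive and 34 negative calls among 78, beside 9.05% positive and 11.1% negative over all genes, and 71 of them had a negative fold change. That list was taken by symbol alone and includes entries such as Atp5c1-ps, Atp5s and Atp5sl. The cytosolic chaperones had a median of 0.15, with 8 positive and 0 negative calls among 17 by the authors' test, again beside 9.05% and 11.1% of all genes. These chaperones are highly expressed, with 20872 normalized counts for the middle gene. Of all genes with a mean of 10000 or more, 41.7% were called in either direction, beside 47.1% of these chaperones. No test between these lists was run, because their genes share libraries, and nothing is called particular to the import genes from these medians.

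**Figure D4:**
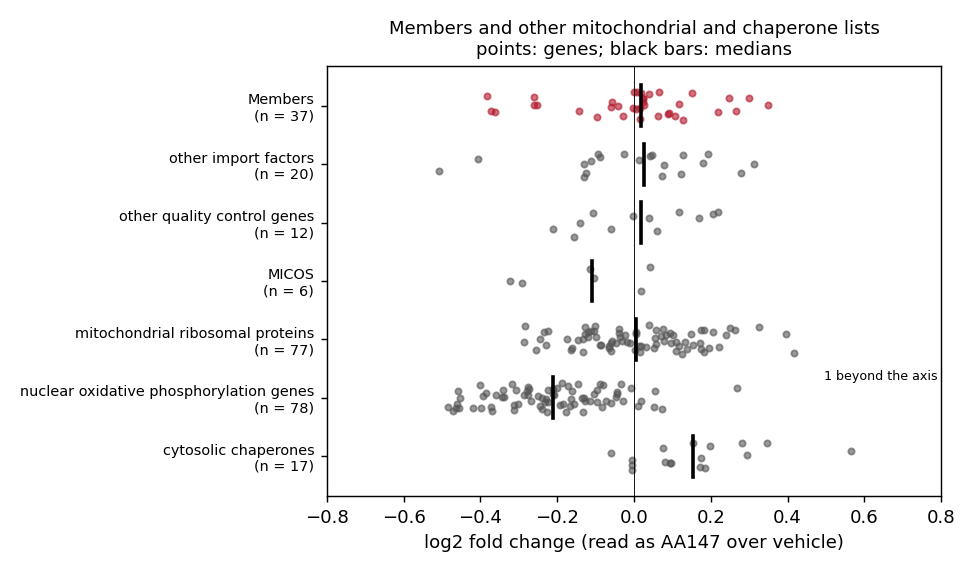
Log2 fold changes (horizontal, read as AA147 over vehicle) in the authors' deposited table for the 37 members (red) and 6 other lists (grey), 1 point per gene with an adjusted p, with black bars for the medians; 1 oxidative phosphorylation gene lies beyond the axis. The members and the mitochondrial ribosomal proteins are spread around no change, the oxidative phosphorylation genes lie mostly below it with a median of -0.21, and the cytosolic chaperones lie mostly above it with a median of 0.15.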

How the data were processed

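Per the labels' protocols, mRNA sequencing was not stranded, and total RNA came from a spin kit. Per the submitters' processing notes, DESeq2 and the build mm9 were used; the aligner, counter and annotation are not given in the sources used here. The authors deposited 1 table of a single comparison. Its mean is a signal, the normalized count averaged over the libraries, per the file headers. The authors deposited the log2 fold change, its SE and a score, the Wald statistic, which equalled their ratio within 3.06e-07. The p-value of each gene was deposited with its adjusted form, which matched a Benjamini-Hochberg adjustment over 13597 genes within 7.58e-07. The other 2875 genes had none, with means of at most 8.41. Depth per library is unknown; the means summed to 30768012.

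No refit was possible. Counts of calls, medians, 95% intervals and implied group means were computed from the table, and implied means assume equal group sizes. All members are named; fuller values are given for called members, set pairs of paralogs and the main chaperones and proteases, and at most 8 called genes of each other list. Further genes named were chosen after their values were seen. The members and lists were chosen with earlier results of these data known. Lengths, GC content, shared exons and genome copies came from GENCODE M39 and GRCm39 with BLAST 2.17.0, and all 37 members matched a gene. Promoters came from RefSeq, GRCm38.p6. Alternatives changed the threshold, adjustment, centre, trend and member list. A list of glial markers is not reported here. The code was tested on simulated data. Python 3.11.15, pandas 2.3.3, SciPy 1.17.1, statsmodels 0.14.6 and matplotlib 3.10.9 were used.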

Additional observations from a re-analysis of the deposited data

How the results depend on the processing

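No paired analysis was possible because the deposited values are 1 per gene, not per library. Likewise, leaving out each replicate in turn, refits with edgeR or other size factors and filters on counts were not run. The 10 called members became 6 at an adjusted p under 0.01 (2 positive, 4 negative) and 1 with a Bonferroni adjustment, Timm17b. They became 0 with a limit of 0.5 on the absolute log2 fold change and 0 with the DESeq2 statistic divided by its robust SD of 2.03, beside 11 members with an unadjusted p under 0.05. Of the 14 named chaperones, proteases and Samm50, 3 were called, beside 20.2% of all genes. In the same order, the 8 called genes of the other pathway lists and the stress regulators became 5, 3, 3 and 2. The 57 called genes of the comparison lists became 17 with Bonferroni, 2 with the fold limit and 2 with the divided statistic, and the 6 role groups of 10 with a call became 1, 0 and 0. These settings were all stricter than the main one. For the divided statistic that follows from the SD, which was taken from these data and came out at 2.03. The count of called members stayed between 9 and 10 under the other settings that kept all roles, among them both shifts of the centre, and was 7 for the Timm and Tomm members only. Trend subtraction ended the calls of Timm17a, Timm21 and Grpel1 and added Timm50 (0.18, adjusted p 0.0355) and Tomm40 (0.16, adjusted p 0.042); the cause was not tested. The median of the members ran from 0.00 to 0.03 over its alternatives. No called member changed sign. Leaving out Tomm6os, or the 4 members that share at least 50% of their exons or have a genome copy, was added after seeing the data and left 9 calls each.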
